A study of Homo sapiens with 9 samples.

Results

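The genes described here are 10 members of the IL-1 and IL-6 cytokine families and the colony-stimulating factors, out of 58735 genes in the deposited table: IL1A, IL1B, IL1RN, IL1RAP, IL6, IL6ST, IL11, LIF, CSF2 and CSF3. They were taken by gene symbol, and the set was chosen by the readout itself, because IL1B and LIF were higher at higher doses of the drug in these same samples. The values of IL1B and LIF are therefore given as a description, with no test, and tests are reported for the other 8 members where the counts allowed one. RNA-seq was carried out on KHM-5M, a single human thyroid cancer cell line, kept for 24 h with DMSO, the solvent alone, or with YK-4-279, a small-molecule inhibitor of ETS transcription factors, at 0.3 μM or 1 μM. Each of the 3 groups held 3 samples, 9 in all, and the DMSO samples served as control for both doses. The comparisons ask which of these cytokine genes differ between treated and control cells and between the doses.

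Cytokines of the IL-1 family (IL-1α from IL1A and IL-1β from IL1B) bind a receptor made of IL1R1 and its accessory chain IL1RAP, and signal through MYD88 and the IRAK kinases to NF-kB and MAP kinases, while IL1RN encodes the antagonist that occupies the receptor without signalling. Cytokines of the IL-6 family (IL-6, IL-11 and LIF) bind the receptors IL6R, IL11RA and LIFR and share the signalling chain gp130, encoded by IL6ST. That chain activates JAK kinases and STAT3. CSF2 (GM-CSF) and CSF3 (G-CSF) drive the production and activity of myeloid cells through receptors of their own, and many tumour cells and stimulated epithelial cells secrete them together with IL-1 and IL-6.

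Library totals lay between 16903251 and 18238884 counts, and a gene with 0 counts may at this depth be present at up to 3 counts by counting error alone, which is 0.164 to 0.177 CPM, the count scaled to a common library total. Of the markers of the cell type, PAX8 and the keratin KRT8 were abundant, at 2742 to 3660 and 22002 to 24344 counts per sample, whereas TG had at most 4 counts and CDH1 at most 5. Of the 8 thyroid markers, 3 never had more than 3 counts. In DMSO, the 4 mesenchymal markers summed to 105689 to 109235 counts, above the 7 epithelial markers at 31509 to 33648. The 9 leukocyte markers summed to 20 to 48 counts in DMSO, 35 to 41 at 0.3 μM and 57 to 71 at 1 μM, mostly from CD14 and CSF1R, while PTPRC, CD68, LYZ and CD3E had at most 2 counts in any sample. The leukocyte sum was thus higher at 1 μM, as most of the cytokines were, and its part in the results was not tested. Of the 9 leukocyte markers, 6 never had more than 3 counts, and 2 were tested at 1 μM against DMSO. CD14 rose by a log2 fold change of 1.07 (edgeR, Benjamini-Hochberg adjusted p 0.0484). It did not stay under 0.05 in 5 of the fits with 1 sample left out. The samples are bulk cultures, in which more cells expressing a gene and more RNA per cell cannot be told apart.

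At 1 μM, 6 of the 7 tested members other than IL1B and LIF rose against DMSO, namely IL1A, IL6, IL11, IL6ST, CSF2 and CSF3, and none fell. The seventh, IL1RAP, had a log2 fold change of 0.40 and did not pass. A member was called when its adjusted p in edgeR's quasi-likelihood test was under 0.05, with Benjamini-Hochberg adjustment over all genes tested. Of all 15617 genes tested, 7.67% were called higher and 9.95% lower. In all 7 tested members other than IL1B and LIF, the 3 samples at 1 μM lay above the 3 DMSO samples in CPM, which was the case for 16.7% of all genes tested. Estimated rises over 1.5-fold were found for IL1A, IL6, CSF2 and CSF3 among the 6 called members. The estimated differences of IL1B and LIF were over 1.5-fold as well. That of LIF was under 1.5-fold without DMSO replicate 2 or without 1 μM replicate 1, with log2 fold changes of 0.56 and 0.58. At 0.3 μM none of the 7 tested members other than IL1B and LIF was called. With 3 samples a side, an exact two-sided permutation test of 1 gene cannot reach a p below 0.1, and the p-values printed are those of the edgeR model over all genes. The labels give 3 samples per group, while the study's methods speak of 2 biological replicates per condition, and neither says whether the 3 samples came from separate cultures, so the p-values measure the spread between these samples, which may be technical.

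**Figure D1:**
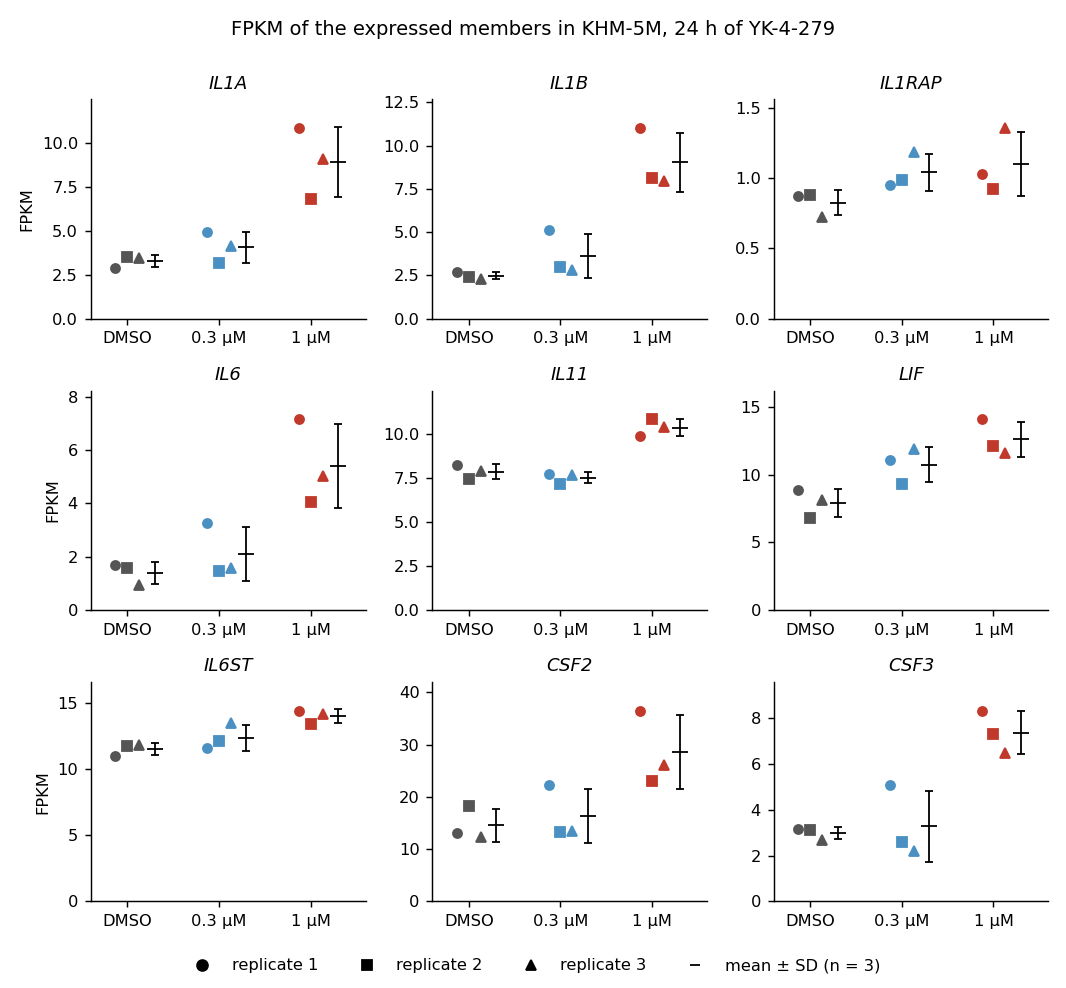
FPKM (authors' value, counts divided by gene length and library size) of the 9 expressed members in each sample, by group, with the group mean and SD (n = 3) beside the points. The 3 samples at 1 μM lie above the 3 DMSO samples in each panel, and 0.3 μM replicate 1 stands above its group for IL1B, IL6, CSF2 and CSF3.

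Among the IL-1 ligands, IL1B (ENSG00000125538, chr2:112829751-112836903 of GRCh38, minus strand) encodes the secreted IL-1β, which is cleaved from a precursor before release. It had 145, 135 and 122 counts in DMSO replicates 1 to 3, 282, 167 and 151 at 0.3 μM and 627, 435 and 418 at 1 μM. Every sample at 1 μM was above every other sample, and 0.3 μM replicate 1 stood well above the other two of its group, which were close to DMSO. The mean FPKM was 2.47 ± 0.21 (SD, n = 3) in DMSO, 3.62 ± 1.28 at 0.3 μM and 9.04 ± 1.71 at 1 μM. The log2 fold change against DMSO was 0.55 (standard error, SE, 0.20) at 0.3 μM and 1.85 (SE 0.13) at 1 μM, a 3.61-fold difference. Without 0.3 μM replicate 1, the log2 fold change at 0.3 μM was 0.22.

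IL1A (ENSG00000115008, chr2:112773915-112784590, minus strand) encodes IL-1α, which is active as its precursor and is held inside cells or on their surface. Its counts were 106, 135 and 125 in DMSO, 187, 122 and 153 at 0.3 μM and 423, 251 and 325 at 1 μM. The 1 μM samples were all above the rest, and the 0.3 μM samples overlapped DMSO. The mean FPKM went from 3.28 ± 0.34 (SD, n = 3) in DMSO to 4.07 ± 0.88 and 8.90 ± 2.01. IL1A rose by a log2 fold change of 1.42 (SE 0.16) at 1 μM against DMSO, with an adjusted p of 5.43e-05 (edgeR, Benjamini-Hochberg). At 0.3 μM the log2 fold change was 0.31 (SE 0.17), with an adjusted p of 0.995 by the same edgeR test. Between the doses it rose by 1.13 (SE 0.17; edgeR, Benjamini-Hochberg adjusted p 0.000395).

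The antagonist gene IL1RN (ENSG00000136689, chr2:113107214-113134016, plus strand) was close to absent. It had 0 counts in 7 of the 9 samples, 2 in 0.3 μM replicate 3 and 1 in 1 μM replicate 3, and it did not pass the filter on low counts. At this depth no difference was detectable for IL1RN. From the start of IL1A to the end of IL1RN the chromosome 2 cluster spans 360102 bases and holds 15 annotated genes. Only IL1A and IL1B of these were tested, and 12 of the 15, among them IL36A, IL36B, IL36RN, IL37 and IL1F10, never had more than 5 counts in a sample.

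IL1RAP (ENSG00000196083, chr3:190514051-190659750, plus strand) encodes the chain that the IL-1, IL-33 and IL-36 receptors need to signal. It had 174, 185 and 143 counts in DMSO, 196, 206 and 240 at 0.3 μM and 219, 184 and 265 at 1 μM. Replicate 3 was the highest in both treated groups, and the range at 0.3 μM lay within that at 1 μM. In CPM all treated samples were above DMSO. The log2 fold change at 1 μM was 0.40 (SE 0.15), with an adjusted p of 0.0807 (edgeR, Benjamini-Hochberg). It passed without 1 μM replicate 2 (edgeR, Benjamini-Hochberg adjusted p 0.0493) and with no filter on low counts (0.0184), and was 0.352 without 1 μM replicate 3. At 0.3 μM the log2 fold change was 0.33 (SE 0.14), and between the doses it was 0.08 (SE 0.14), with edgeR adjusted p of 0.995 and 0.771 (Benjamini-Hochberg).

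IL6 (ENSG00000136244, chr7:22725884-22732002, plus strand) encodes the ligand that gives the gp130 family its name. It had 61, 59 and 33 counts in DMSO, 121, 55 and 57 at 0.3 μM and 272, 145 and 176 at 1 μM. The lowest sample at 1 μM was above the highest of the rest, and of the 0.3 μM samples only replicate 1 was above DMSO. Its mean FPKM was the lowest of the 7 expressed ligands in each group, at 1.40 ± 0.41 (SD, n = 3) in DMSO, 2.10 ± 1.01 at 0.3 μM and 5.41 ± 1.58 at 1 μM. The log2 fold change at 1 μM was 1.93 (SE 0.23), a 3.80-fold rise and the largest estimate of the members, with an adjusted p of 0.000127 (edgeR, Benjamini-Hochberg). At 0.3 μM it was 0.58 (SE 0.30; edgeR, Benjamini-Hochberg adjusted p 0.995), and 0.11 without replicate 1. IL6 rose by 1.36 (SE 0.25) between the doses, with an adjusted p of 0.00219 by the same edgeR test. On the opposite strand IL6 overlaps STEAP1B, which had 11 to 25 counts per sample, and without strand in the counting the reads of both could not be told apart.

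The promoters of IL1A, IL1B and IL6 are shown because these ligands had the largest estimated differences at 1 μM. They are RefSeq windows of 300 bases (GRCh38.p14), from 250 bases before to 50 after the annotated start, in the direction of the gene, at chr2:112784444-112784743 (minus strand), chr2:112836730-112837029 (minus strand) and chr7:22726950-22727249 (plus strand). Capitals mark matches, on either strand, to the AP-1 motif TGANTCA or to the NF-kB consensus:
IL1A: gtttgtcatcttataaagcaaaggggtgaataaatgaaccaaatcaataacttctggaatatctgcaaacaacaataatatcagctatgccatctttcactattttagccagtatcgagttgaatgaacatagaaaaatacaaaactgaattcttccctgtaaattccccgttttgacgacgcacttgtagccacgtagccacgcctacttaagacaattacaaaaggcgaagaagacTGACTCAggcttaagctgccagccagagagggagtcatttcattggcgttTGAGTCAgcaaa
IL1B: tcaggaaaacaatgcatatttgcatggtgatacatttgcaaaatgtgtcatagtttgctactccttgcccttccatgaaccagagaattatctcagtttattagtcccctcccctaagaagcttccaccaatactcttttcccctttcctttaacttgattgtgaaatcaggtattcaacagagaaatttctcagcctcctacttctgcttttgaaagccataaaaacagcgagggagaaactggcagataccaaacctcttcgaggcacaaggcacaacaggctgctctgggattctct
IL6: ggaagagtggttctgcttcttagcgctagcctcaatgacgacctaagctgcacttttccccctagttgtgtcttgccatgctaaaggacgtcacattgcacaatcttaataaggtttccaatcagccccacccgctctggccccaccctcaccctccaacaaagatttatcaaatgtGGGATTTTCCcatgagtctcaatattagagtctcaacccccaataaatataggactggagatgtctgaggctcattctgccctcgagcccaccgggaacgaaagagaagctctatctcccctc
The IL1A window held 2 AP-1 matches, starting 12 bases before and 38 bases after the start, and no NF-kB match. In the IL6 window the NF-kB match began 73 bases before the start, and in the IL1B window neither motif was found, which says only that these letters are not in this window. Of the 8 members with an entry, 3 held an AP-1 match (IL1A, IL1RN and IL11) and 2 an NF-kB match (IL6 and IL6ST), while 7.76% and 10.8% of all 27305 promoters did. A match to AGGAAG, a sequence found in ETS factor sites, was found in 1 of the 8 (CSF2), against 33.7% of all promoters, and one to CCGGAA in 1 of the 8 (IL6ST), against 17.6%. Only AGGAAG and CCGGAA were searched for ETS factors, so a window without them was not shown to lack ETS sites. A match to TTNNGNAA, written here for the C/EBP family, was found in 3 of the 8 (IL1A, IL1B and IL6), against 37.2% of all promoters, and the sequence TATAAA in 1 of the 8 (IL1A), against 12.0%. LIF and CSF3 had no entry.

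LIF (ENSG00000128342, chr22:30240447-30246851, minus strand) encodes leukaemia inhibitory factor, which signals through LIFR and gp130. It had 608, 489 and 551 counts in DMSO, 785, 670 and 826 at 0.3 μM and 1029, 833 and 781 at 1 μM. All treated samples were above all DMSO samples, and the lowest sample at 1 μM lay within the range at 0.3 μM. The mean FPKM was 7.93 ± 1.04 (SD, n = 3) in DMSO, 10.8 ± 1.32 at 0.3 μM and 12.6 ± 1.31 at 1 μM. The log2 fold change against DMSO was 0.44 (SE 0.11) at 0.3 μM and 0.66 (SE 0.10) at 1 μM, and that between the doses was 0.23 (SE 0.10). Unlike IL1B, LIF kept its value at 0.3 μM without replicate 1 of that group, at 0.42. The antisense gene AC004264.1 overlaps LIF and had 10 to 20 counts per sample.

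IL11 (ENSG00000095752, chr19:55364389-55370463, minus strand) encodes a gp130 cytokine with roles in stroma and epithelium. Its counts were even within groups, with 381, 360 and 360 in DMSO, 368, 346 and 359 at 0.3 μM and 485, 500 and 469 at 1 μM. All samples at 1 μM were above all others, while the 0.3 μM samples overlapped DMSO and had a slightly lower mean. IL11 rose at 1 μM by a log2 fold change of 0.38 (SE 0.09; edgeR, Benjamini-Hochberg adjusted p 0.00737), from 7.86 ± 0.40 to 10.4 ± 0.47 FPKM (SD, n = 3 each). At 0.3 μM the log2 fold change was -0.07 (SE 0.10), with an adjusted p of 0.995 by edgeR with Benjamini-Hochberg adjustment. Between the doses it rose by 0.46 (SE 0.09; edgeR, Benjamini-Hochberg adjusted p 0.00332).

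IL6ST (ENSG00000134352, chr5:55935095-55994993, minus strand), the gene of the shared chain gp130, had the most counts of the members and the smallest estimated difference at 1 μM. It had 1771, 1978 and 1871 counts in DMSO, 1916, 2034 and 2185 at 0.3 μM and 2457, 2159 and 2228 at 1 μM. Samples at 1 μM were all above DMSO but overlapped those at 0.3 μM. IL6ST rose at 1 μM by a log2 fold change of 0.26 (SE 0.06; edgeR, Benjamini-Hochberg adjusted p 0.00673). At 0.3 μM it was 0.10 (SE 0.08), and between the doses 0.18 (SE 0.07), with edgeR adjusted p of 0.995 and 0.0994 (Benjamini-Hochberg). The comparison of doses passed without 0.3 μM replicate 3 (edgeR, Benjamini-Hochberg adjusted p 0.0197). On the opposite strand AC016596.1, with 22 to 49 counts, overlaps IL6ST.

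CSF2 (ENSG00000164400, chr5:132073790-132076170, plus strand) encodes GM-CSF and had the highest mean FPKM of the members in each group. Its counts were 179, 260 and 166 in DMSO, 314, 189 and 185 at 0.3 μM and 528, 313 and 348 at 1 μM. At 0.3 μM only replicate 1 was above DMSO, and in counts the lowest sample at 1 μM was just below that replicate, although in CPM it was above it. The mean FPKM was 14.6 ± 3.18 (SD, n = 3) in DMSO, 16.3 ± 5.19 at 0.3 μM and 28.5 ± 7.06 at 1 μM. CSF2 rose at 1 μM by a log2 fold change of 0.95 (SE 0.17; edgeR, Benjamini-Hochberg adjusted p 0.00185). At 0.3 μM the value was 0.16 (SE 0.19; edgeR, Benjamini-Hochberg adjusted p 0.995), which turned to -0.13 without replicate 1. Between the doses it rose by 0.80 (SE 0.18), with an adjusted p of 0.00879 (edgeR, Benjamini-Hochberg). That call ended without 0.3 μM replicate 2 (edgeR adjusted p 0.0602), without 1 μM replicate 1 (0.0604) and with DESeq2 (0.0809), all with Benjamini-Hochberg adjustment.

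CSF3 (ENSG00000108342, chr17:40015361-40017813, plus strand) encodes G-CSF, the growth factor of the neutrophil lineage. It had 122, 125 and 102 counts in DMSO, 201, 105 and 85 at 0.3 μM and 340, 281 and 243 at 1 μM. The samples at 1 μM were above all others. At 0.3 μM, replicate 1 was above all of DMSO, while in counts replicate 3 was below all of it. In CPM, replicates 2 and 3 (5.84 and 4.84) were both below the lowest DMSO sample (6.03). CSF3 rose at 1 μM by a log2 fold change of 1.28 (SE 0.13; edgeR, Benjamini-Hochberg adjusted p 2.97e-05), from 2.99 ± 0.26 to 7.37 ± 0.93 FPKM (SD, n = 3 each). At 0.3 μM it was 0.14 (SE 0.24; edgeR, Benjamini-Hochberg adjusted p 0.995) with 3.29 ± 1.55 FPKM, and -0.32 without replicate 1 of that group. Between the doses it rose by 1.16 (SE 0.21; edgeR, Benjamini-Hochberg adjusted p 0.00191).

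**Figure D2:**
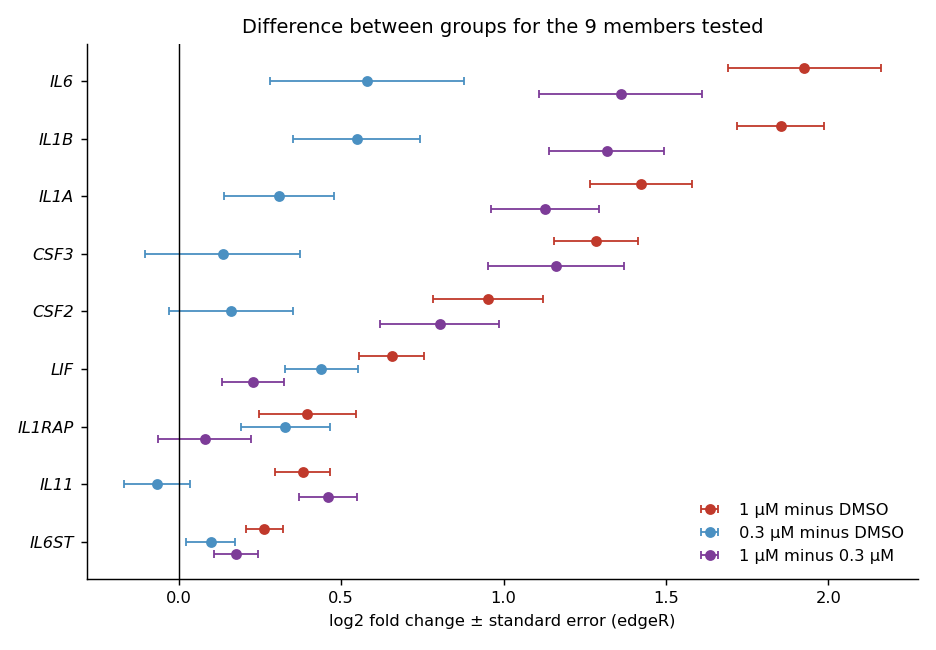
Log2 fold change from edgeR for the 9 tested members in the 3 comparisons, in order of the value at 1 μM against DMSO. Bars are the SE derived from the test. IL6 and IL1B lie furthest to the right at 1 μM, at 1.93 and 1.85, and LIF and IL1RAP are the members whose value between the doses (0.23 and 0.08) is smaller than their value at 0.3 μM against DMSO (0.44 and 0.33).

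At 0.3 μM against DMSO, 15762 genes were tested and edgeR called 0 at an adjusted p under 0.05 (0.0%), while 594 (3.77%) had an unadjusted p under 0.05 and DESeq2 called 1. Of the 7 tested members other than IL1B and LIF, 1 (IL1RAP) had 0.3 μM samples all above DMSO, as did 3.16% of all genes tested. Between the doses, 5 of these 7 members were called higher at 1 μM, namely IL1A, IL6, IL11, CSF2 and CSF3, and none lower. Of all 15583 genes tested there, 5.85% were called higher and 6.75% lower. The samples of the 2 doses did not overlap, with 1 μM the higher, in 5 of the 7 and in 15.3% of all genes. This comparison shares its 1 μM samples with the comparison of 1 μM against DMSO, and both comparisons with DMSO share their controls.

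The spread within the treated groups was not even. Among the 7 tested members other than IL1B and LIF, replicate 1 at 0.3 μM stood apart in IL6, CSF2 and CSF3. It was there at least 1.5 times both other samples of its group in CPM, a gap that 1.82% of all genes tested showed. In IL1A and IL11 it was also the highest 0.3 μM sample, as in 34.4% of all genes tested. At 1 μM, replicate 1 was the highest in IL1A, IL6, IL6ST, CSF2 and CSF3 of these 7 members, and in 41.7% of all genes tested. IL1B, whose rise helped to choose the set, showed the same gap at 0.3 μM, and replicate 1 was the highest for IL1B and LIF at 1 μM. The FPKM values of the 7 ligands summed to 37.8 to 43.0 in DMSO, to 59.5, 39.9 and 43.7 at 0.3 μM and to 97.8, 72.2 and 76.7 at 1 μM. When replicate 1 was left out of both doses, an alternative chosen after these values were seen, the log2 fold change between the doses was 1.12 for IL1A, 1.57 for IL6, 1.52 for CSF3, 0.88 for CSF2 and 0.51 for IL11, and all 5 were still called.

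**Figure D3:**
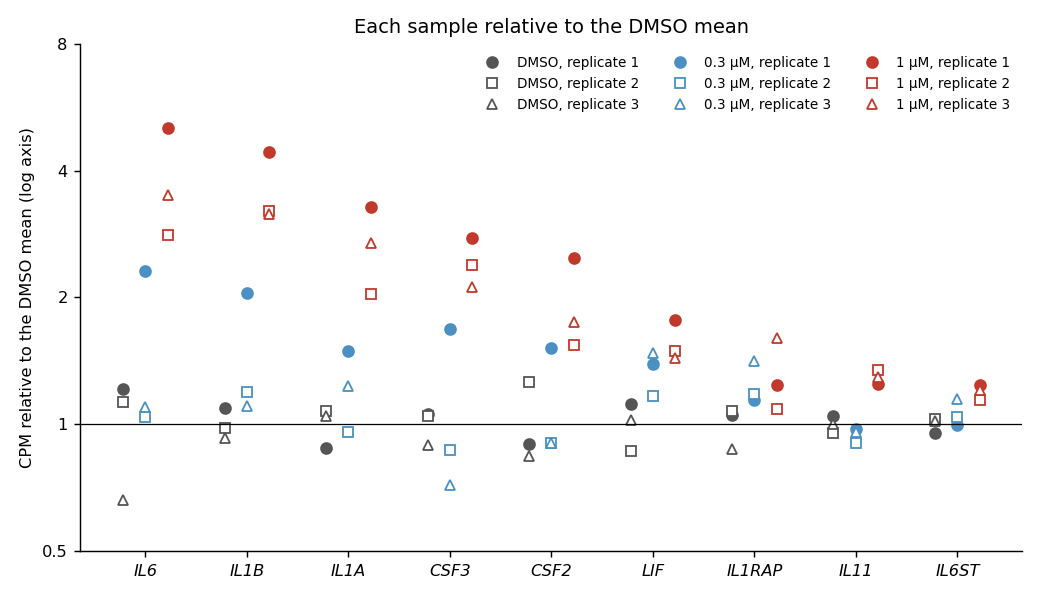
CPM of each member in each sample divided by the mean of the 3 DMSO samples, on a log axis, with replicate 1 as filled circles. 0.3 μM replicate 1 lies at 2.31 for IL6 and 2.05 for IL1B, above the other samples of its group at 1.04 to 1.20, whereas the 0.3 μM values of LIF lie between 1.17 and 1.47.

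Per length, CSF2, IL6ST, LIF and IL11 were the most abundant members by mean FPKM in all 3 groups, and IL6, IL1RAP and IL1RN the least. In DMSO the neighbours LIF and IL11 overlapped, as did IL1A, CSF3 and IL1B in turn, while CSF2, at 12.4 to 18.2 FPKM, did not overlap IL6ST, at 11.01 to 11.80. At 0.3 μM, CSF2 overlapped IL6ST and IL6ST overlapped LIF, and IL1A, IL1B, CSF3 and IL6 overlapped in turn. At 1 μM, IL6ST overlapped LIF, and IL11, IL1B, IL1A, CSF3 and IL6 overlapped in turn, and IL1B had moved from below CSF3 to above IL1A by its mean.

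The genes with the pattern most like IL1B over the 9 samples were IL6, STC1, RRAD, IL1A and CCL20, of 14170 genes with a mean of at least 1 CPM. The likeness was the root mean square difference of log2(CPM + 0.5), each gene set to its DMSO mean, and was 0.19 for IL6, 0.27 for STC1, 0.31 for RRAD, 0.35 for IL1A and 0.39 for CCL20. CSF3 ranked 8, CSF2 ranked 26 and LIF ranked 93 in this order, and IL1RAP, IL11 and IL6ST ranked 715, 884 and 1442. For LIF the nearest were RELB, FRAT2, IRAK2, ICAM1 and FOXF2, at 0.10, 0.10, 0.13, 0.13 and 0.14, none of them a member. In the order around LIF, IL1RAP ranked 462, IL6ST 992, IL11 1391, CSF2 2389, IL1A 5740, CSF3 7815, IL1B 12472 and IL6 12886 of the 14170 genes. The measure was not scaled to the size of a change, so a gene that rose further than LIF ranks low despite the same direction. On this scale the mean difference from DMSO at 1 μM was 0.64 for LIF, 1.77 for IL1B and 1.75 for IL6. All these values come from the same 9 libraries and are a description.

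Of the other 17 genes of the IL-1 family of ligands and receptors, 6 were tested at 1 μM, and 1 was called higher and 1 lower, beside the 7.67% and 9.95% of all genes called in each direction. IL1R1, the signalling receptor, rose by a log2 fold change of 0.49 (SE 0.12), with 143, 133 and 150 counts in DMSO and 231, 184 and 195 at 1 μM. SIGIRR, a receptor of the family that restrains signalling, decreased by 0.40 (SE 0.11). The adjusted p were 0.0143 and 0.0186 (edgeR, Benjamini-Hochberg). The call on IL1R1 ended without 1 μM replicate 1 (0.0620), and that on SIGIRR without DMSO replicate 1 or 3 or 1 μM replicate 1 or 2 (up to 0.0768). The decoy receptor gene IL1R2 had at most 3 counts in a sample. The median log2 fold change of the 6 genes was -0.14, against -0.01 for all genes tested. This list and those below were chosen with earlier results of these data known.

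Of 24 tested genes that carry the IL-1 signal or process its ligands, 7 were called higher and 3 lower, against 7.67% and 9.95% of all genes, and the other 14 did not pass. The largest rises were those of IRAK2 (0.47, SE 0.10), a kinase-like partner of MYD88, NLRP3 (0.37, SE 0.10), the inflammasome sensor, TAB3 (0.35, SE 0.10), an adaptor of the kinase TAK1, and MYD88 itself (0.31, SE 0.09), all as log2 fold changes. UBE2V1, part of a ubiquitin-conjugating enzyme that acts with TRAF6, fell from 484, 518 and 447 counts to 330, 169 and 228, a log2 fold change of -1.02 (SE 0.15). NLRP1, another inflammasome sensor, and GSDMD, the pore-forming protein through which IL-1β can leave cells, decreased by 0.53 and 0.20. Leaving out 1 sample at a time, the calls on IRAK2, UBE2V1 and NLRP1 held in every fit. The number called higher was between 2 (without 1 μM replicate 2) and 7 (without DMSO replicate 2), and was 3 without DMSO replicate 3 or 1 μM replicate 1. MYD88 lost its call without DMSO replicate 3 or 1 μM replicate 2, NLRP3 without either of these or 1 μM replicate 1, TAB3 without DMSO replicate 1 or 1 μM replicate 1 or 2, and GSDMD in 5 of the 6 fits, all but that without DMSO replicate 2. The list's median was 0.08.

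Of the other genes of the IL-6 family and the colony-stimulating factors with their receptors, 14 of 21 were tested, 3 were called higher and 1 lower, against 7.67% and 9.95% of all genes. CSF1, the macrophage growth factor, had 1299, 1206 and 1155 counts in DMSO and 1979, 1702 and 1597 at 1 μM, a log2 fold change of 0.50 (SE 0.07; edgeR, Benjamini-Hochberg adjusted p 0.000329). The IL-6 receptor gene IL6R rose by 0.52 (SE 0.12) and OSMR, the oncostatin M receptor, by 0.31 (SE 0.06). IL11RA, the IL-11 receptor, decreased by 0.71 (SE 0.23; edgeR, Benjamini-Hochberg adjusted p 0.0447), from 60, 96 and 66 to 58, 42 and 37 counts, a call that ended without DMSO replicate 2 or 3 or 1 μM replicate 2 or 3. LIFR had a log2 fold change of -0.13 (SE 0.07) and did not pass, with an edgeR adjusted p of 0.210 (Benjamini-Hochberg). CSF2RA, CSF2RB and CSF3R, the receptor genes for GM-CSF and G-CSF, had at most 3 counts in any sample. The receptor genes for IL-6, IL-11 and LIF were therefore measured in these cells and those for CSF2 and CSF3 were at or near 0. The median log2 fold change of this list was 0.15.

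Of 29 JAK-STAT genes, all tested, 5 were called higher and 2 lower at 1 μM, against 7.67% and 9.95% of all genes, with a median log2 fold change of 0.05. STAT3, the factor activated by gp130, rose by 0.30 (SE 0.06; edgeR, Benjamini-Hochberg adjusted p 0.00307), and SOCS1, a feedback inhibitor of JAK kinases, by 1.02 (SE 0.27) from 19 to 27 counts in DMSO to 42 to 47. STAT5A, STAT6 and the phosphatase gene PTPN11 rose by 0.27, 0.23 and 0.18, while TYK2, a JAK kinase, and STAT2 decreased by 0.28 and 0.33. SOCS3, the best known feedback target of gp130, had a log2 fold change of 0.21 (SE 0.08) and did not pass (edgeR, Benjamini-Hochberg adjusted p 0.0791). The calls on STAT3, TYK2 and STAT2 held with each sample left out. The number called higher was 1 without DMSO replicate 3, 2 without 1 μM replicate 2, 3 without replicate 1 or 3 of it and 4 without DMSO replicate 1 or 2. SOCS1 lost its call without DMSO replicate 3 or of the 1 μM group, STAT6 without DMSO replicate 3 or 1 μM replicate 2, PTPN11 in 4 of the 6 fits and STAT5A in 5.

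Of 25 known STAT3 target genes, 18 were tested, and 10 were called higher and 1 lower at 1 μM, beside the 7.67% and 9.95% of all genes. The median log2 fold change was 0.38, against -0.01 for all genes tested. IER3, an early stress response gene, had 1592, 1334 and 1360 counts in DMSO and 2944, 2658 and 2719 at 1 μM, a log2 fold change of 0.93 (SE 0.08). JUNB, an AP-1 subunit, and the C/EBP factors CEBPD and CEBPB rose by 0.83, 0.78 and 0.50, and PIM1, a survival kinase, decreased by 0.22. These genes also respond to other signals, and the list was chosen with earlier results of these data known. With each sample left out, 7 to 9 were called higher, and IER3, JUNB, CEBPD and CEBPB in every fit, whereas PIM1 passed in 1 of the 6, that without DMSO replicate 2.

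**Figure D4:**
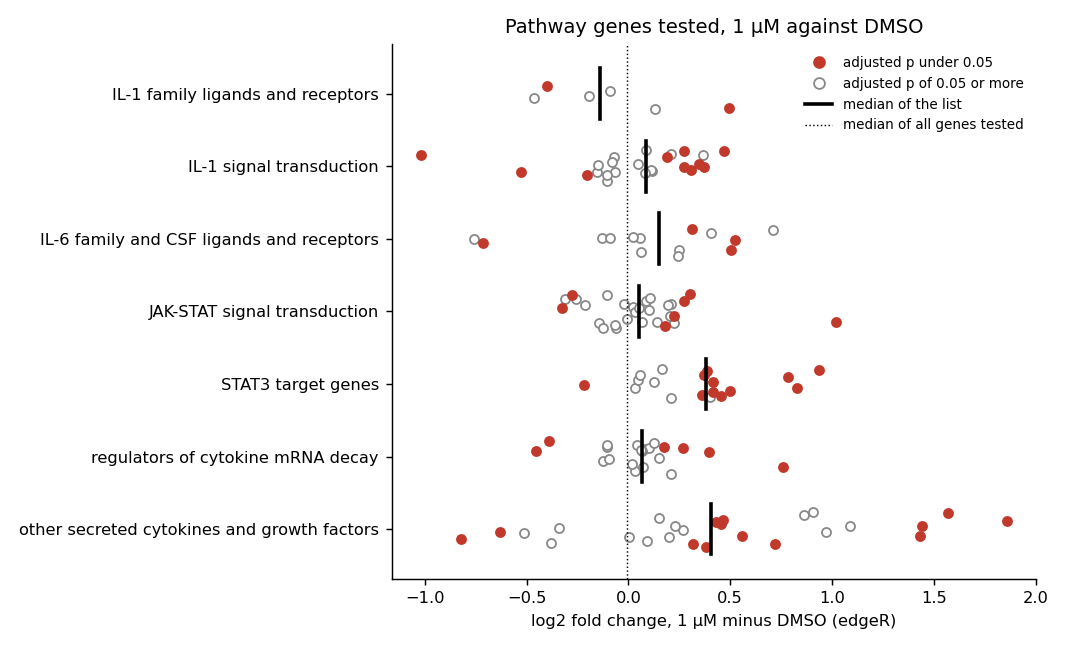
Log2 fold change at 1 μM against DMSO (edgeR) of each tested gene of 7 lists, members excluded. Red points have an adjusted p under 0.05, bars mark list medians and the dotted line the median of all genes tested (-0.01). The medians of the STAT3 targets (0.38) and the other secreted cytokines and growth factors (0.40) lie furthest to the right. The lists share genes: VEGFA is drawn in both of these, and SOCS3 in the JAK-STAT and STAT3 target lists.

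Many cytokine mRNAs carry AU-rich elements, runs of the pentamer AUUUA in the 3′ UTR that are bound by proteins governing mRNA decay. For the 7 expressed ligands the 30-base window of the 3′ UTR with the most pentamers is shown, from the GRCh38 reference transcripts, in the direction of the mRNA with T for U and the pentamers in capitals. The windows are chr5:132076072-132076101 (plus strand) for CSF2, chr17:40016975-40017004 (plus) for CSF3, chr2:112774424-112774453 (minus) for IL1A, chr2:112830003-112830032 (minus) for IL1B, chr7:22731697-22731726 (plus) for IL6, chr19:55365951-55365980 (minus) for IL11 and chr22:30240522-30240551 (minus) for LIF:
CSF2: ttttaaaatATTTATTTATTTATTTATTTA
CSF3: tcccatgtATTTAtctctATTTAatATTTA
IL1A: tATTTAtatatgtATTTAtaaatatATTTA
IL1B: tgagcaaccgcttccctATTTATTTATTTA
IL6: ttttaattatttttaATTTAttaatATTTA
IL11: ttccaaagccagatcttATTTATTTATTTA
LIF: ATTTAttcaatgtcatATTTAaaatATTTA
The CSF2 3′ UTR held 8 pentamers in 318 bases, the IL6 UTR 6 in 429, the IL1B UTR 6 in 610, the CSF3 UTR 7 in 854 and the IL1A UTR 5 in 1142. By pentamers per kilobase these stood at the 99.98, 99.6, 98.9, 97.9 and 86.8 percentile of 18020 3′ UTRs. The IL11 UTR held 9 pentamers in 1625 bases and the LIF UTR 7 in 3198, at the 92.6 and 59.4 percentile. The longer motif TTATTTATT was found in 4 of the 10 members (CSF2, IL1B, IL11 and LIF) and in 8.77% of the UTRs. Of the members that are not ligands of this group, the IL1RAP UTR held 15 pentamers in 2814 bases and the IL6ST UTR 23 in 5987. They stood at the 91.8 and 82.2 percentile, and the UTR of IL1RN held no pentamer. These are features of the reference sequence, and mRNA decay was not measured.

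Of 21 tested regulators of cytokine mRNA decay, 4 were called higher and 2 lower at 1 μM, against 7.67% and 9.95% of all genes, with a median log2 fold change of 0.06. ZC3H12A, the nuclease Regnase-1 that degrades IL6 mRNA, rose from 641, 569 and 568 to 1162, 958 and 939 counts, a log2 fold change of 0.76 (SE 0.08; edgeR, Benjamini-Hochberg adjusted p 5.35e-05). Its relative ZC3H12C rose by 0.40, and N4BP1 and the kinase gene MAPKAPK2, which acts on AU-rich element binding proteins, by 0.27 and 0.17. TIA1 and TIAL1, RNA-binding proteins that hold back translation, decreased by 0.46 and 0.39. The calls on ZC3H12A, ZC3H12C, TIA1 and TIAL1 held with each sample left out. N4BP1 lost its call without DMSO replicate 3 or 1 μM replicate 1 or 2, and MAPKAPK2 in all fits but that without DMSO replicate 1, so that 2 were called higher without DMSO replicate 3 or 1 μM replicate 1 or 2. At 0.3 μM, 0 genes of any of these lists were called by edgeR, as was the case for all genes.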

How the data were processed

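RNA-seq of 9 KHM-5M samples was analysed, 3 each for DMSO, 0.3 μM and 1 μM. The authors trimmed and quality-filtered the reads and aligned to GRCh38 with HISAT2 (2.0.5 per the submitters' processing notes). The counter is HTseq in the methods and featureCounts 1.5.0-p3 in the notes. The methods name a stranded kit and the labels an RNA kit with poly(A) selection, and whether counting used strand is not given in the sources used here. The authors deposited whole-number counts per gene, without normalization, and FPKM values, which divide counts by gene length and library size. Their DESeq2 columns (fold changes, p-values and adjusted p-values for each dose against DMSO) were not used.

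Counts were tested with edgeR 4.0.16 in R 4.3.3 on the groups compared (filterByExpr with a minimum count of 10, TMM, glmQLFit and glmQLFTest). P-values were adjusted by Benjamini-Hochberg over all genes tested. The SE printed is the absolute log2 fold change divided by the square root of the F value of the same test. Steps were tested on simulated counts. FPKM gave levels across genes, and CPM (counts scaled to the library total) gave levels across samples. Alternatives were DESeq2 1.42.0, RLE size factors, no filter on low counts, all 9 samples, a replicate block, each sample left out, the unadjusted p and a 1.5-fold threshold (0.587 on the log2 scale). Tables used Python 3.11.15, pandas 2.3.3 and numpy 2.4.6.

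The members and the lists were chosen with earlier results of these data known. Named were all members, their receptors, the 5 genes nearest IL1B and the 5 nearest LIF, genes between IL1A and IL1RN, and from each list every called gene, or the 4 with the largest change where more than 6 were called in a direction. Some cell type markers are not reported here by name. SOCS3 and the markers named fall outside this rule and were chosen after their values were seen. Promoters are from RefSeq, and 3′ UTRs are those of the longest principal reference transcript of each gene. Within groups, each pair of samples differed by more than sampling noise (3.20 to 10.7 as chi-square over its degrees of freedom).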

Additional observations from a re-analysis of the deposited data

How the results depend on the processing

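The unadjusted p and the 1.5-fold threshold aside, 306 member values were obtained under alternatives. Of these, 297 kept their direction and side of the threshold, or, for IL1B and LIF, moved by less than the spread between replicates. CSF2 and CSF3 at 0.3 μM turned to -0.13 and -0.32 without 0.3 μM replicate 1, with a range of -0.13 to 0.36 and of -0.32 to 0.36 over the samples left out, and IL1RAP between the doses turned to -0.093 without 1 μM replicate 3, with a range of -0.093 to 0.197. The other 6 were the calls on CSF2, IL6ST and IL1RAP given with those genes. Of the 7 tested members other than IL1B and LIF, 6 were called at 1 μM against DMSO. By the unadjusted p the number was 7, and with the 1.5-fold threshold it was 4. Genes called at 1 μM against DMSO numbered 2752, and 4985 by the unadjusted p, 858 with the 1.5-fold threshold and 1683 to 2977 with a sample left out, fewest without DMSO replicate 3. At 0.3 μM the 0 became 594 by the unadjusted p, 1 with DESeq2, 30 with no filter on low counts and 0 to 4 with a sample left out. Between the doses, 1963 became 4301 by the unadjusted p, 499 with the 1.5-fold threshold, 948 to 1884 with a sample left out and 910 without replicate 1 of both doses. The IL-1 pathway genes called at 1 μM (ligands, receptors and signalling) numbered 12, but 1 with the 1.5-fold threshold and 5 to 12 with a sample left out. For the IL-6 family pathway the count was 11, but 19 by the unadjusted p, 2 with the 1.5-fold threshold and 6 to 10 with a sample left out. The unadjusted p and the fold threshold change the counts by construction, and the cause of the other differences was not tested.

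Same-numbered samples were not shown to be paired, since their deviations correlated between -0.14 and 0.22 over 9 pairs. With the replicate number as a block, the genes called numbered 2120 at 1 μM against DMSO, 1 at 0.3 μM and 1768 between the doses, and those of the IL-1 and IL-6 pathways 8 each. Counts under about 10 per sample, as for IL1RN and the receptors of CSF2 and CSF3, limit what could be tested.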

Other observations

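Of 32 other secreted cytokines and growth factors, 26 were tested at 1 μM against DMSO, and 11 were called higher and 2 lower, against 7.67% and 9.95% of all genes. The median log2 fold change was 0.40, against -0.01 for all genes tested. This list, too, was chosen with earlier results of these data known, and VEGFA, called higher, is in the list of STAT3 targets as well. GDF15, a stress-induced TGF-β family member, had 21, 13 and 18 counts in DMSO, 54, 35 and 74 at 0.3 μM and 80, 48 and 65 at 1 μM. Its log2 fold change at 1 μM was 1.86 (standard error, SE, 0.28; edgeR, Benjamini-Hochberg adjusted p 0.000607). All treated samples were above all DMSO samples. EREG, a ligand of the EGF receptor, had 54, 63 and 55 counts in DMSO, 60, 67 and 60 at 0.3 μM and 189, 145 and 138 at 1 μM. It rose at 1 μM by 1.43 (SE 0.16; edgeR, Benjamini-Hochberg adjusted p 6.17e-05). Only its 1 μM samples stood apart.

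IL24, a cytokine of the IL-10 family, rose by 1.44 (SE 0.38) on the log2 scale and IL34, a ligand of CSF1R, by 1.57 (SE 0.43), on 10 to 72 and 4 to 22 counts per sample. IL24 lost its call without DMSO replicate 3 or 1 μM replicate 1, and IL34 in all fits with a sample left out but that without 1 μM replicate 3. Of the falling genes, TGFB2 decreased by 0.63 (SE 0.06), from 1898, 2091 and 1952 to 1373, 1240 and 1279 counts. LTB, lymphotoxin beta, decreased by 0.82 (SE 0.27), on 19 to 45 counts, and lost its call with any sample left out.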
